A study of Mus musculus with 30 samples.

Results

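The response of Lrrk2 knockout (KO) microglia to α-synuclein fibrils was measured in 11 of the 30 libraries of the series, 5 of fibril-treated KO cells against 6 of untreated KO cells. All 30 libraries were bulk RNA-seq of primary microglia from C57BL/6 mice at postnatal day 21. Fibril-treated and control KO cells alike are labelled with the genotype Lrrk2-/-. Lrrk2 encodes a large kinase and GTPase whose variants cause inherited Parkinson's disease. Wild-type (WT) cells with fibrils (4 libraries), WT controls (5 libraries) and KO cells given the bacterial cell wall component lipopolysaccharide (LPS, 4 libraries) serve as references here. These groups and WT cells given LPS (6 libraries) also entered the fit, and so helped to set the spread behind the p-values. The sources used here give no fibril dose, exposure time or sex, nor the origin of the knockout line. Nothing in the labels tells whether replicates were separate cultures or animals, so p-values cover only the spread among these samples, and that spread may be technical.

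Microglia are the resident macrophages of the brain. In Parkinson's disease α-synuclein aggregates into fibrils, and microglia take up such fibrils and sense them through surface receptors that include Toll-like receptors. These receptors signal to NF-kB, a family of transcription factors that switches on cytokine genes together with genes for its own inhibitors. Nrf2 is the transcription factor of the antioxidant response, and resting microglia are recognised by a set of receptors for purines, chemokines and growth factors.

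Counts assigned to genes ranged from 19314337 to 22800537 in the fibril libraries (median 20442860) and from 8936310 to 25792873 in the KO controls (median 19581090), control replicate 4 being the smallest. Lrrk2 (ENSMUSG00000036273, chromosome 15, 91673175 to 91816120 on mm10) was low in both KO groups, at 1.61, 1.26, 1.05, 0.731 and 1.88 CPM (counts scaled to library size and TMM factors) in fibril replicates 1 to 5. The KO controls held 1.96 to 4.35 CPM (median 2.59), while means were 13.2 CPM in WT controls and 7.95 CPM in WT fibril libraries. All 5 fibril libraries lay below all 6 controls, and the remaining Lrrk2 signal fell with fibrils by 1.10 on the log2 scale (SE 0.22, adjusted p = 6.46e-04). Which exons the remaining reads cover was not analysed here. KO control replicates 5 and 6 and fibril replicates 4 and 5 stood apart from the rest on the first principal component (30.6, 63.5, 47.6 and 80.1, against -50.8 to 3.24). These same 4 libraries had the highest mean levels of interferon response genes (5.82, 7.35, 6.46 and 7.79 log2 CPM, against 3.13 to 5.60 elsewhere) and the lowest of oligodendrocyte lineage markers (0.98, 0.23, 0.55 and 0.12, against 1.47 to 4.52).

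With fibrils, 3402 of 14346 genes tested (23.7%) passed an adjusted p of 0.05 in edgeR, 1746 higher (12.2% of genes tested) and 1656 lower (11.5%). The median over all genes was -0.04 on the log2 scale, and among called genes 270 rose and 424 fell by more than 2-fold. In 672 genes (4.68%) all 5 fibril libraries lay above all 6 controls, and in 489 (3.41%) all 5 lay below. The spread in this test was estimated from all 6 groups of the series, and a fit on the 11 libraries alone called 1541 genes, 836 higher and 705 lower. Without the 4 libraries that stand apart 2581 genes were called.

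**Figure D1:**
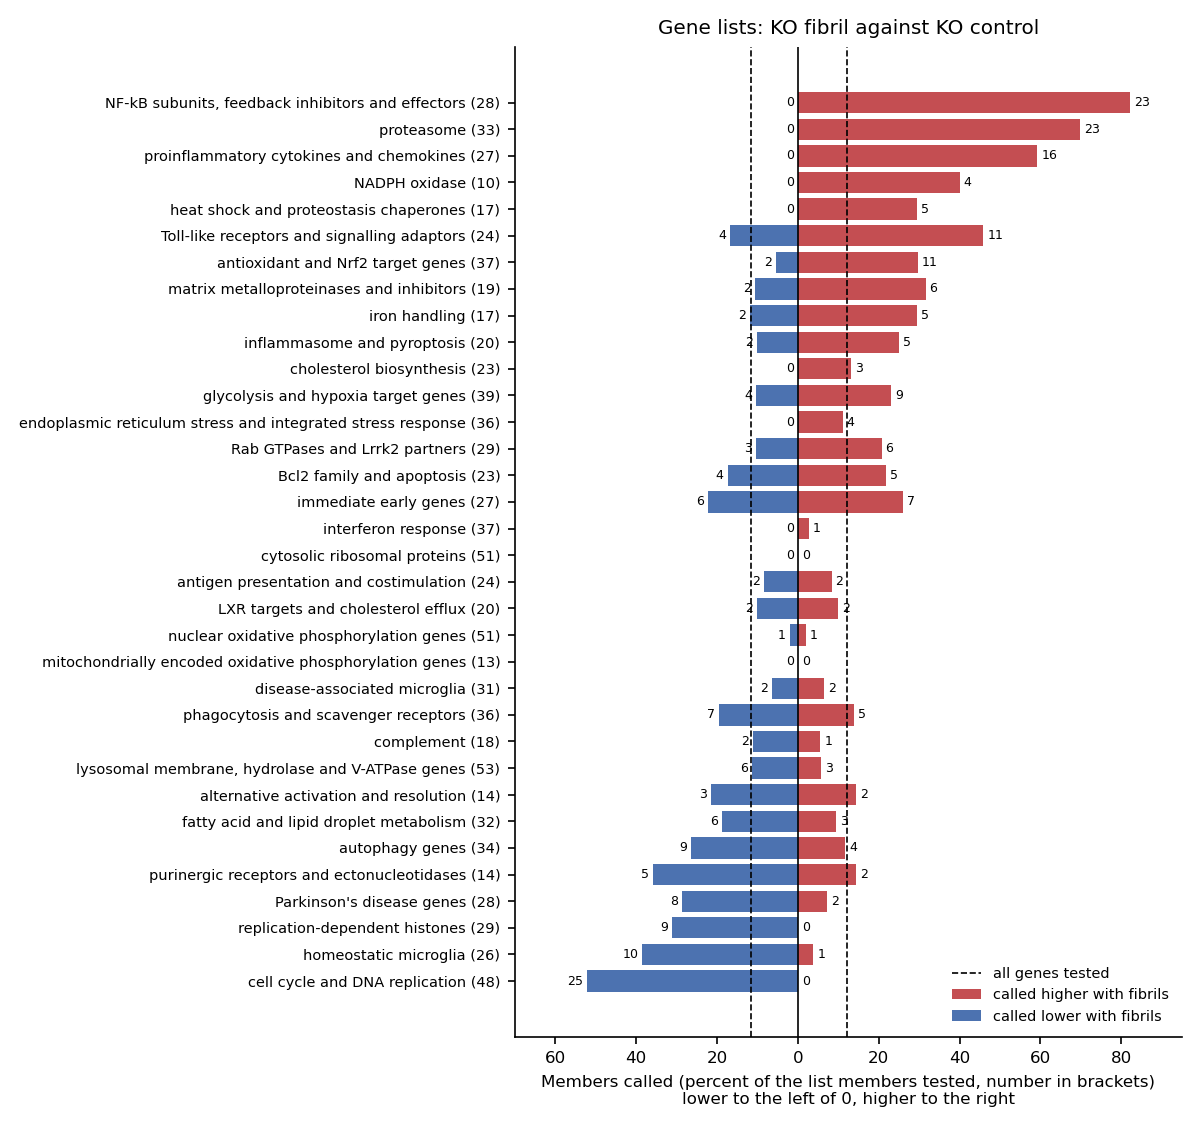
Share of each gene list called in KO fibril against KO control, as a percentage of members tested (number tested in brackets), with members called higher to the right of 0 and members called lower to the left. Dashed lines mark the share over all genes tested, 12.2% higher and 11.5% lower, and bar ends carry the number of genes. NF-kB genes (23 of 28), proteasome subunits (23 of 33) and cytokines (16 of 27) reach furthest to the right, and cell cycle genes (25 of 48) furthest to the left.

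The genes that rose most encode signals and enzymes of inflammation. Adm, the gene of the vasodilator peptide adrenomedullin, held 16.5, 12.9, 73.7, 45.5 and 65.8 CPM in fibril replicates 1 to 5, against 1.09 to 2.02 CPM (median 1.77) in the controls. That is a log2 fold change of 4.63 ± 0.44 (SE, adjusted p = 2.66e-08), with replicates 3 to 5 several times above replicates 1 and 2. Ptges, the prostaglandin E synthase gene, held 64.4, 45.6, 88, 59.4 and 170 CPM against 3.88 to 8.65 CPM (median 5.43), a rise of 3.83 ± 0.35 (adjusted p = 1.56e-08). Hpgd, which encodes the enzyme that inactivates prostaglandin E2, moved the other way, at 23.9, 41.2, 12.1, 30.3 and 5.25 CPM against 68.7 to 192 CPM (median 157; -2.73 ± 0.33, adjusted p = 1.36e-06). For both prostaglandin genes the fibril and control libraries did not overlap. Further genes among the 12 most increased were the macrophage lectin receptor Clec4e (2.81 ± 0.28), the medium-chain fatty acid receptor Gpr84 (2.86 ± 0.33), the activation antigen Cd69 (2.75 ± 0.32), the kinase Pim2 (2.68 ± 0.33), the TNF receptor adaptor Traf1 (2.87 ± 0.40), Lad1 (2.97 ± 0.49) and Zfp811 (2.63 ± 0.48). In each of these 7 genes all fibril libraries lay above all controls.

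The genes that fell most were led by Cytip, which encodes a protein that binds the integrin regulator cytohesin 1, and Slco2b1, an organic anion transporter gene of resting microglia (chromosome 7, 99657804 to 99711340). Cytip held 5.13, 5.65, 1.95, 1.93 and 0.771 CPM against 16.6 to 188 CPM (median 54.3; -4.46 ± 0.64, adjusted p = 1.05e-05). Slco2b1 held 0.402, 0.628, 0.65, 3.34 and 0.723 CPM against 14.5 to 50.4 CPM (median 20.1; -4.46 ± 0.46, adjusted p = 1.26e-07). Fibril replicate 4 was the highest of the fibril libraries for Slco2b1, and still below every control. The ubiquitin ligase genes Rnf150 (-3.14 ± 0.28) and Rnf144b (-2.40 ± 0.42), the sialyltransferase St6gal1 (-2.21 ± 0.21), the lysophosphatidic acid receptor Lpar6 (-2.10 ± 0.23), Kctd12b (-2.12 ± 0.29) and Gpr155 (-2.10 ± 0.24) also fell, each without overlap between groups. Thbs1, the gene of the matrix protein thrombospondin 1, fell by 2.42 ± 0.73, but its groups overlapped and the call ended without control replicate 4 (adjusted p = 0.0609).

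**Figure D2:**
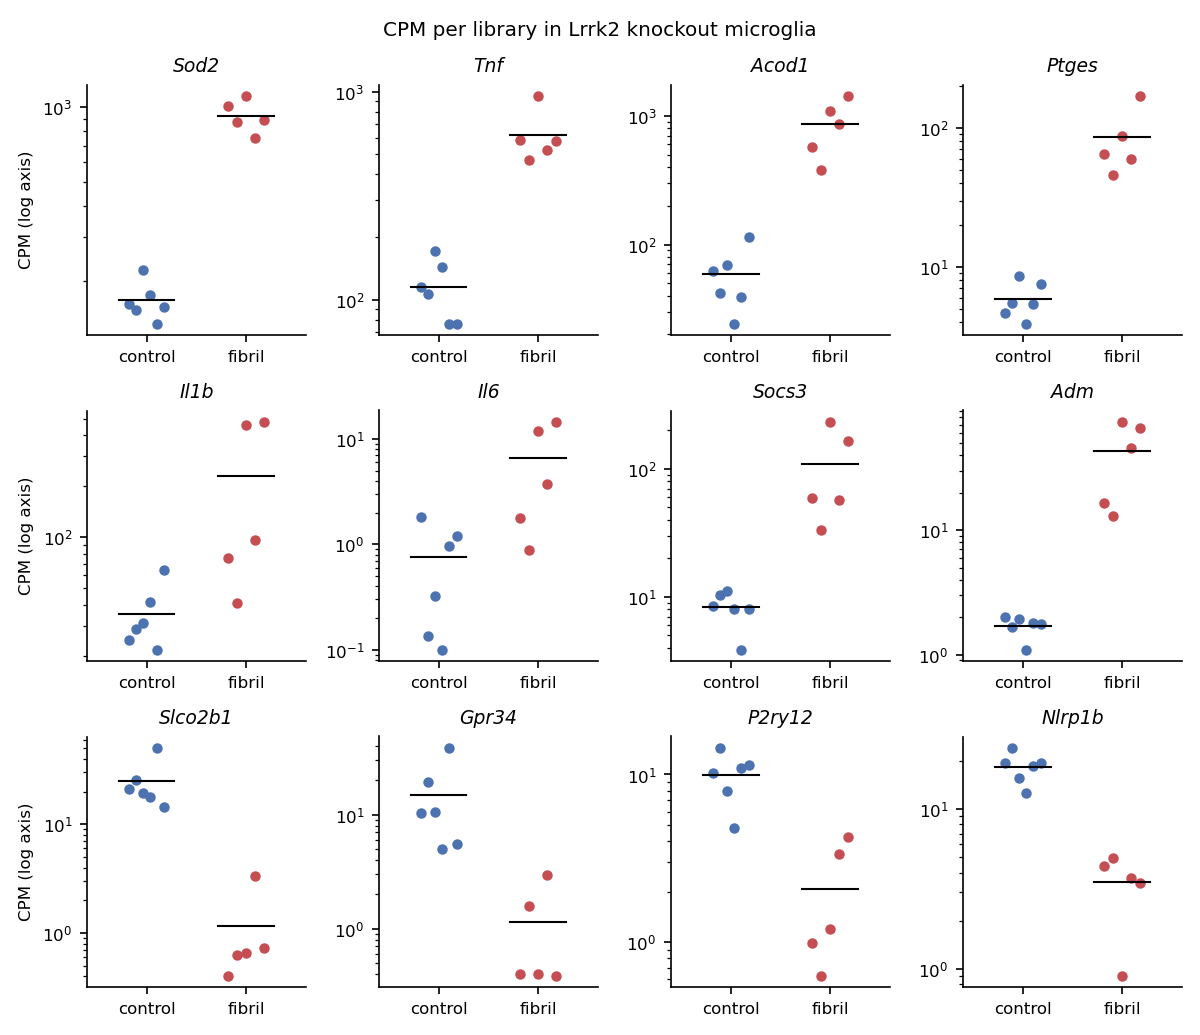
CPM per library (log axis) of 12 genes in KO controls (blue) and KO fibril libraries (red), with the group mean as a line and libraries without a count drawn at the bottom of the axis. The groups are separate for 10 of the 12 genes and overlap for Il1b and Il6, and Sod2 moves from 134 to 221 CPM in controls to 749 to 1110 CPM with fibrils.

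Sod2, the mitochondrial superoxide dismutase gene (ENSMUSG00000006818, chromosome 17, 13006846 to 13040063), had the smallest p of all genes tested. It held 1010, 871, 1110, 749 and 885 CPM in the fibril libraries and 134 to 221 CPM (median 159) in the controls, a rise of 2.47 ± 0.13 (adjusted p = 6.79e-13). Sod2 is also an NF-kB target, and it led the list of 28 measured NF-kB subunits, feedback inhibitors and effectors, of which 23 rose and 0 fell (12.2% and 11.5% over all genes). In 17 of the 28 genes all fibril libraries lay above all controls, and the median was 1.06. The mean level of the list was 6.46, 6.21, 7.09, 6.55 and 7.27 log2 CPM in fibril replicates 1 to 5 and 5.09 to 5.64 in the controls, so the groups were separate. Without the 4 libraries that stand apart the median was 0.97.

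The upstream sequences of 4 members of this list that rose were searched for the letters GGANNTTCC. These are 1 form of the κB element, the short DNA element that NF-kB dimers bind, and are called κB-like here. They are the 250 bases before the first listed start site (RefSeq, GRCm38.p6), written 5′ to 3′ on the gene's own strand, with κB-like matches in capitals.
Acod1 (chr14:103046762-103047011, plus strand): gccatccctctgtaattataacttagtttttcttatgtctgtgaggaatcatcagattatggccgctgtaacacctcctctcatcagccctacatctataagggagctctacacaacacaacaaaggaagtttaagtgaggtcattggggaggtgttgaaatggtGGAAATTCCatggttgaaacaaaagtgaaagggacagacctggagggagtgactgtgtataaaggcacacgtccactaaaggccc
Icam1 (chr9:21015690-21015939, plus strand): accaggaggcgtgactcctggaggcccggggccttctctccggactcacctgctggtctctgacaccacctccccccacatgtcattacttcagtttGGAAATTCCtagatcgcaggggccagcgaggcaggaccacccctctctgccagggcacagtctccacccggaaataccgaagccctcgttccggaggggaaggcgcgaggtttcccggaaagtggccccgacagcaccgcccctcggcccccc
Sod2 (chr17:13007589-13007838, plus strand): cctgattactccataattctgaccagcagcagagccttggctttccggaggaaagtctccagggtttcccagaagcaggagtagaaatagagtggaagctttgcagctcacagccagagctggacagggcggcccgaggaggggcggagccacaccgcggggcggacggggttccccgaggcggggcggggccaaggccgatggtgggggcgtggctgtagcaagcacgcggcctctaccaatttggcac
Socs3 (chr11:117969367-117969616, minus strand): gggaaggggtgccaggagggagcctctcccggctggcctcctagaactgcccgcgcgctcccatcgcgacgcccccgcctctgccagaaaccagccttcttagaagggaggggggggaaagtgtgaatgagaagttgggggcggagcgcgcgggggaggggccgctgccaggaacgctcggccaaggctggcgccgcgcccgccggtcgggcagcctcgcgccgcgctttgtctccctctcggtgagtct
The letters GGANNTTCC were searched on both strands, and Acod1 and Icam1 each hold GGAAATTCC, starting 85 and 153 bases before the start. No match to these letters lies in the windows shown for Sod2 and Socs3. Other forms of the κB element were not searched, so these windows may still hold some, and the shares below cover only these letters. The Sod2 window lies inside the gene interval given above, so the bases before the start of that interval were not searched. Over genes tested that had an entry in the promoter table, 3.89% of 10339 windows held a match, beside 6 of the 19 windows of NF-kB list members that rose and 6 of the 11 windows of cytokine genes that rose. The AP-1 element TGANTCA was in 4.3% of all these windows and in 2 of 19 and 4 of 11 of the same sets. The antioxidant response element TGACNNNGC was in 11.9% of all windows and in 2 of 19 and 1 of 11. Over all tested members of the NF-kB and cytokine lists, whether or not they rose, 7 of 24 and 8 of 18 windows held the κB-like letters. These sets include the members that rose, 19 of the 24 and 11 of the 18 windows. The windows left are too few to tell whether the share differs between members that rose and the others. A match is a description of the letters and not a measured binding site.

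Acod1, which encodes the enzyme that makes itaconate, held 578, 377, 1090, 872 and 1430 CPM against 24.1 to 114 CPM (median 52.1; 3.89 ± 0.35, adjusted p = 1.45e-08). Socs3, an inhibitor of cytokine receptor signalling, held 58.9, 33.4, 233, 57.2 and 164 CPM against 3.84 to 11.2 CPM (median 8.30; 3.70 ± 0.37, adjusted p = 5.72e-08). Icam1, the adhesion molecule bound by leukocyte integrins, held 364, 306, 604, 339 and 398 CPM against 72.1 to 154 CPM (median 87.3; 2.03 ± 0.20, adjusted p = 5.18e-08). None of these 3 genes overlapped between groups, and fibril replicates 3 and 5 were the 2 highest libraries in each.

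Cytokines and chemokines carry the inflammatory signal to other cells, and 16 of the 27 genes tested rose while 0 fell (median 1.74). Tnf, the gene of the cytokine TNF (chromosome 17, 35199381 to 35202007), held 586, 469, 955, 522 and 578 CPM with fibrils and 76.4 to 172 CPM (median 111) in controls (2.44 ± 0.20, adjusted p = 4.82e-09). The chemokine genes Ccl3 and Cxcl2 attract monocytes and neutrophils. Ccl3 held 667, 659, 1010, 1090 and 1310 CPM against 57.5 to 351 CPM (median 207; 2.20 ± 0.31), and Cxcl2 held 213, 117, 363, 92.6 and 123 CPM against 12.1 to 49.6 CPM (median 31.4; 2.62 ± 0.32). Csf3, which encodes the neutrophil growth factor G-CSF, was close to absent in controls, with a highest value of 0.103 CPM, and reached 7.81, 3.39, 20.6, 1.41 and 8.33 CPM with fibrils. Its fitted change of 7.48 ± 0.69 (adjusted p = 2.08e-08) rests on near-zero controls and depends on the prior count.

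The interleukin genes rose with wide spread among the fibril libraries. Il1b held 75.4, 41.1, 457, 96.3 and 478 CPM against 21.7 to 64.3 CPM (median 30.1), so that replicate 2 lay within the control range (2.70 ± 0.53, adjusted p = 4.03e-04). Il6 held 1.78, 0.879, 11.9, 3.76 and 14.5 CPM against 0.0994 to 1.83 CPM (median 0.642; 3.13 ± 0.73, adjusted p = 0.00228). Replicates 1 and 2 of the fibril group were within the control range for Il6, and the call was lost with limma-voom (adjusted p = 0.136). Il10, the anti-inflammatory interleukin gene, held 7.59, 5.11, 28.1, 21.8 and 30.1 CPM against 0.497 to 6.96 CPM (median 3.50; 2.28 ± 0.56, adjusted p = 0.00331). For all 3 interleukin genes, fibril replicates 3 and 5 were the 2 highest libraries. The cytokine list as a whole had mean levels of 3.34, 2.70, 4.50, 3.70 and 4.82 log2 CPM with fibrils and 1.77 to 3.05 in controls, the highest control (replicate 6) lying above fibril replicate 2.

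Of 24 Toll-like receptors and signalling adaptors, 11 rose and 4 fell, with a median of 0.28. Irak3, a kinase-dead inhibitor of this pathway, held 177, 123, 228, 120 and 220 CPM against 29.9 to 75.4 CPM (median 45.7; 1.86 ± 0.22, adjusted p = 5.70e-07). The kinase gene Irak2 (1.23 ± 0.14) and the receptor gene Tlr1 (1.12 ± 0.24) also rose. The LPS receptor gene Tlr4 fell, at 137, 161, 104, 156 and 177 CPM against 183 to 273 CPM (median 212; -0.59 ± 0.10, adjusted p = 1.54e-04), with no overlap between groups. The other genes that fell were the endosomal RNA and DNA receptors Tlr8 (-1.0 ± 0.22) and Tlr9 (-1.48 ± 0.48) and the kinase gene Irak4 (-0.28 ± 0.08). The call of Tlr9 ended without any 1 of 5 single libraries, control replicate 6 or fibril replicates 1 to 4 (adjusted p up to 0.129). With only the 11 compared libraries in the fit, 4 members rose and 2 fell.

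Inflammasomes are protein complexes that activate caspase 1 and release interleukin 1β. Of the 20 measured inflammasome genes 5 rose, above the 12.2% over all genes, and 2 fell, below the 11.5% (median 0.12). Nlrp3, a sensor gene, held 196, 129, 361, 117 and 230 CPM against 37 to 79.4 CPM (median 55.4; 1.87 ± 0.27, adjusted p = 1.09e-05). Nlrp1b, another sensor gene, held 4.42, 4.94, 0.9, 3.71 and 3.42 CPM against 12.5 to 24.1 CPM (median 18.9; -2.39 ± 0.24, adjusted p = 8.18e-08). Both sensors were separate between groups, in opposite directions. Nlrp1b has close paralogs, so its counts are uncertain. Casp4, the caspase gene that senses cytosolic LPS, rose by 0.90 ± 0.16 and Il1b by 2.70 ± 0.53, while P2rx7, the ATP-gated channel gene that triggers Nlrp3, fell by 0.88 ± 0.12. The rises of Casp1 (0.40 ± 0.14) and Il18 (0.89 ± 0.32) were lost without any 1 of 5 and 7 single libraries (adjusted p up to 0.134 and 0.321). The count of genes that rose was 3 without control replicates 1, 2 or 3, or without fibril replicates 4 or 5.

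Immediate early genes, which respond to stimulation within minutes, showed no shared direction, with 7 that rose and 6 that fell among 27 (median 0.11). Dusp2, a phosphatase gene, held 23.1, 16, 74.9, 20.1 and 56.5 CPM against 2.79 to 13 CPM (median 6.84; 2.44 ± 0.38, adjusted p = 2.87e-05). Nr4a1, an orphan nuclear receptor gene, held 1.38, 0.879, 1.45, 1.10 and 1.64 CPM against 2.34 to 25.5 CPM (median 7.24; -3.15 ± 0.70, adjusted p = 0.00147). The controls of Nr4a1 were widely spread, and its call was lost with limma-voom (adjusted p = 0.146). The transcription factor gene Klf6 rose by 0.79 ± 0.12 with no overlap. The stress response gene Ier3 rose by 0.86 ± 0.19, with overlapping groups. With only the compared libraries in the fit 4 genes rose and 2 fell, and with limma-voom 1 fell.

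Reactive oxygen species are made by NADPH oxidase and cleared by antioxidant enzymes. Of 10 NADPH oxidase genes 4 rose and 0 fell. Among them Cybb, the catalytic subunit, held 1890, 1820, 1660, 2110 and 2350 CPM against 591 to 1350 CPM (median 994; 1.05 ± 0.18, adjusted p = 7.76e-05). The cytosolic subunit gene Ncf4 (0.73 ± 0.12) and the small GTPase gene Rac2 (0.86 ± 0.21) rose too, the groups overlapping for Rac2 but not for Ncf4. Of 37 antioxidant and Nrf2 target genes 11 rose, above the 12.2% over all genes, and 2 fell, below the 11.5% (median 0.21). Besides Sod2, the glutathione reductase gene Gsr held 301, 275, 241, 259 and 294 CPM against 104 to 150 CPM (median 113; 1.17 ± 0.11, adjusted p = 2.11e-08). Slc7a11, the cystine transporter gene that feeds glutathione synthesis, held 334, 247, 210, 310 and 516 CPM against 57 to 202 CPM (median 115; 1.42 ± 0.24). The mitochondrial peroxiredoxin gene Prdx5 rose by 0.98 ± 0.17, and all 4 of these genes were separate between groups.

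The classical Nrf2 targets Hmox1 and Nqo1 were not called. Hmox1, heme oxygenase 1, held 1350, 1360, 455, 1430 and 1120 CPM against 480 to 1140 CPM (median 747), with fibril replicate 3 below every control (0.52 ± 0.32, adjusted p = 0.261). Nqo1, a quinone reductase gene, held 25.9, 17.5, 20.3, 6.48 and 5.64 CPM against 4.61 to 16.4 CPM (median 9.77; 0.65 ± 0.31, adjusted p = 0.128). Fibril replicates 1 to 3 lay above all controls for Nqo1 and replicates 4 and 5, which are among the libraries that stand apart, did not. Without the 4 libraries that stand apart Nqo1 was called (0.80, adjusted p = 0.00234), as it was without control replicate 1 (adjusted p = 0.0415) or fibril replicates 4 (0.0397) or 5 (0.0293). Gpx1, a glutathione peroxidase gene (-0.50 ± 0.17), and Nnt, the mitochondrial transhydrogenase gene (-0.45 ± 0.09), fell. The call of Gpx1 ended without control replicates 1, 4 or 5 or fibril replicate 5 (adjusted p up to 0.0958). With only the compared libraries in the fit 7 genes of the list rose.

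The proteasome degrades ubiquitin-tagged proteins. Of 33 subunit genes measured 23 rose, 0 fell and 10 were not called, with a median of 0.35 and estimates from 0.07 to 0.78. In 13 of them all fibril libraries lay above all controls. Psma6, a subunit of the core particle, held 143, 147, 202, 175 and 163 CPM against 90.8 to 117 CPM (median 104; 0.68 ± 0.08, adjusted p = 8.36e-07). The regulatory particle genes Psmc2 (0.40 ± 0.07), Psmd1 (0.41 ± 0.07) and Psmd4 (0.39 ± 0.07) rose to a like extent. The mean level of the list was 6.83, 6.86, 7.03, 7.12 and 7.02 log2 CPM with fibrils and 6.43 to 6.73 in controls. With only the compared libraries in the fit 13 subunits rose.

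Of 17 heat shock chaperone genes 5 rose and 0 fell, namely the cytosolic chaperones Hspa8 (0.50 ± 0.11), Hsp90aa1 (0.49 ± 0.11), Hsp90ab1 (0.30 ± 0.11) and Dnaja1 (0.53 ± 0.12) and the mitochondrial chaperone Hspd1 (0.33 ± 0.10). Hspa8 held 2160, 2070, 2960, 3310 and 2350 CPM against 1500 to 2220 CPM (median 1830), so fibril replicates 1 and 2 lay within the control range. Of 36 endoplasmic reticulum stress genes 4 rose (11.1%, below the 12.2% over all genes) and 0 fell. Those that rose were the ubiquitin-like gene Herpud1 (0.85 ± 0.25), the secreted factor Manf (0.49 ± 0.13) and the chaperones Hspa5 (0.41 ± 0.14) and Hyou1 (0.37 ± 0.11). The calls of Hsp90ab1 and Hspa5 each ended without any 1 of 7 single libraries (adjusted p up to 0.148 and 0.195). Those of Hspd1 and Herpud1 ended without fibril replicate 3 (0.0596 and 0.0719) and that of Hyou1 without fibril replicate 4 (0.0569), and without the 4 libraries that stand apart 3 heat shock genes and 1 endoplasmic reticulum gene rose.

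Of 26 measured homeostatic microglia genes 10 fell and 1 rose, with a median of -0.41. Gpr34, a lysophosphatidylserine receptor gene, held 0.402, 1.59, 0.4, 2.98 and 0.385 CPM against 4.97 to 38.5 CPM (median 10.5; -3.71 ± 0.57, adjusted p = 2.65e-05). P2ry12, the ADP receptor gene by which microglia sense injury (chromosome 3, 59216272 to 59262871), held 0.982, 0.628, 1.20, 3.34 and 4.24 CPM against 4.77 to 14.4 CPM (median 10.6; -2.27 ± 0.37, adjusted p = 5.26e-05). The transcription factor gene Mef2c fell by 1.30 ± 0.15 with no overlap, from 119 to 201 CPM in controls to 45.6 to 85.7 CPM. Gpr84 was the one member that rose. Cx3cr1, the fractalkine receptor gene, held 102, 96.8, 40.6, 139 and 37.9 CPM against 126 to 266 CPM (median 219; -1.30 ± 0.28, adjusted p = 0.00125), fibril replicate 4 overlapping the controls. The list's mean level was 5.69, 5.78, 5.44, 5.90 and 5.45 log2 CPM with fibrils and 6.12 to 6.6 in controls, without overlap. In bulk RNA, fewer cells of a type and less RNA per cell cannot be told apart.

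**Figure D3:**
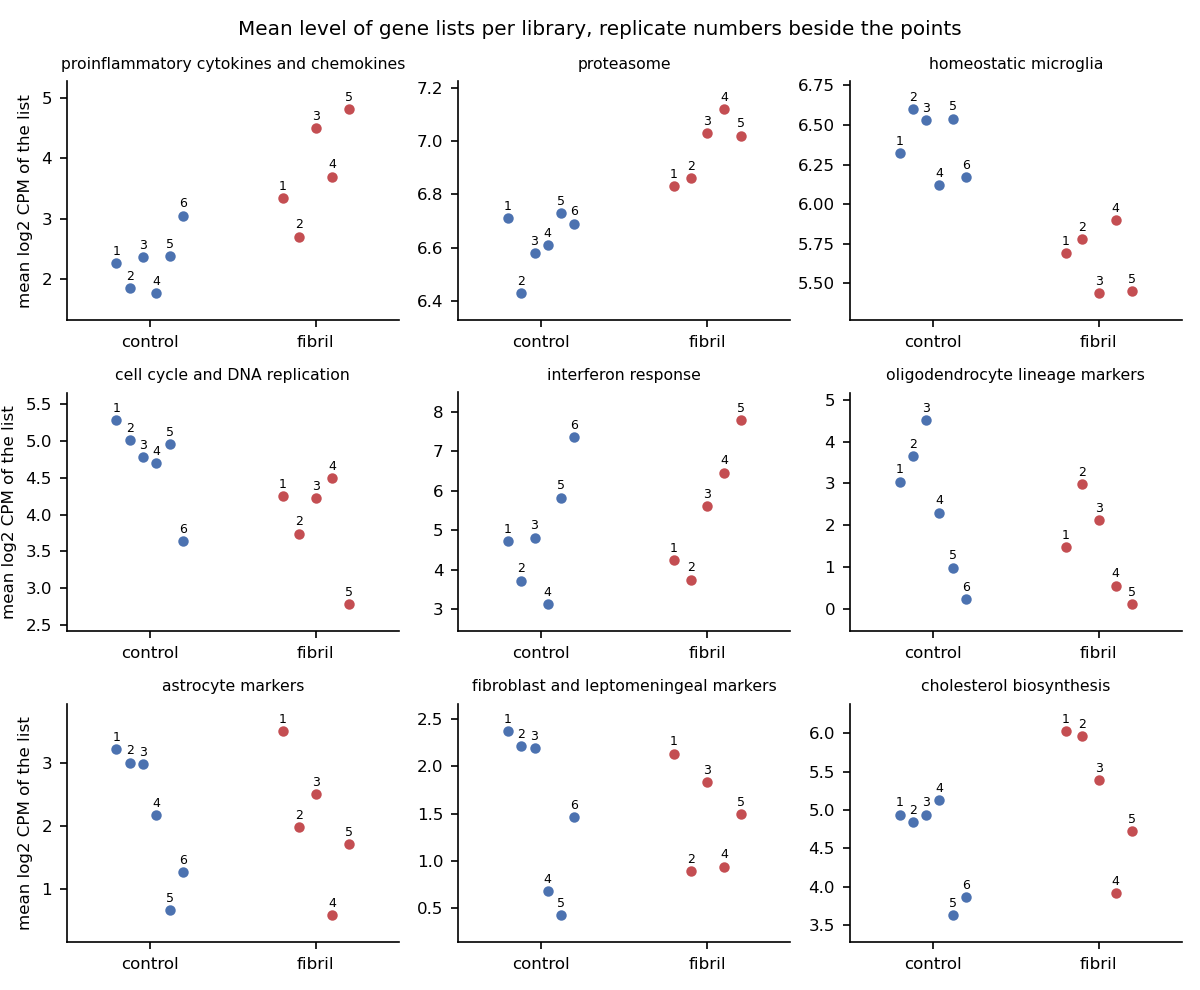
Mean log2 CPM of 9 gene lists in each KO control (blue) and KO fibril library (red), with replicate numbers beside the points. Proteasome and homeostatic lists separate the groups, the cytokine list nearly so, whereas interferon, oligodendrocyte and cholesterol lists set control replicates 5 and 6 and fibril replicates 4 and 5 apart.

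Purinergic signalling genes, which include several of these receptors, had 5 of 14 members that fell and 2 that rose (11.5% and 12.2% over all genes). Entpd1, the ectonucleotidase CD39, held 26.9, 41.1, 14.6, 20.5 and 14.2 CPM against 67.8 to 116 CPM (median 89.6; -1.92 ± 0.27, adjusted p = 1.05e-05). P2rx7 fell by 0.88 ± 0.12, P2ry13 by 1.31 ± 0.25 and P2ry6 by 0.42 ± 0.08, besides P2ry12. The genes that rose were the nucleotide receptor P2ry2 (1.26 ± 0.20), with no overlap, and the adenosine receptor Adora2a (3.00 ± 0.58), whose controls reached 1.29 CPM beside 1.17 to 12.3 CPM with fibrils.

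Disease-associated microglia genes, a program described around amyloid plaques, had 2 of 31 members that rose and 2 that fell, both below the share over all genes, with a median of -0.03. Ch25h, which makes 25-hydroxycholesterol, held 39.6, 33, 103, 86.7 and 67.6 CPM against 9.15 to 28.1 CPM (median 16.6; 1.98 ± 0.31). Hif1a, the hypoxia-inducible factor gene, rose by 0.41 ± 0.08, while the pyrophosphate transporter Ank (-0.74 ± 0.19) and Timp2, a metalloproteinase inhibitor (-0.59 ± 0.20), fell. The call of Timp2 was lost when any 1 of 5 libraries was left out (adjusted p up to 0.0981).

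Of 36 phagocytosis and scavenger receptor genes 5 rose, near the 12.2% over all genes, and 7 fell, above the 11.5% (median -0.15). Marco, a scavenger receptor gene, held 1100, 597, 1090, 1620 and 1390 CPM against 79.9 to 676 CPM (median 357; 1.7 ± 0.38, adjusted p = 0.00165). Msr1, the class A scavenger receptor gene, held 461, 429, 844, 655 and 1070 CPM against 179 to 391 CPM (median 258; 1.29 ± 0.28) without overlap. Olr1 (1.66 ± 0.44), Fcer1g, the signalling chain of Fc receptors (0.40 ± 0.13), and Tlr2 (0.45 ± 0.15) completed the set that rose. Itgb5, an integrin gene used to engulf apoptotic cells, held 87.5, 99.5, 63.6, 108 and 55.4 CPM against 162 to 270 CPM (median 204; -1.31 ± 0.14, adjusted p = 1.04e-07), and Mrc1, the mannose receptor gene, fell by 0.93 ± 0.14. Both were separate between groups. The calls of Fcer1g and Tlr2 ended without any 1 of 6 and 5 libraries (adjusted p up to 0.109 and 0.115), and without control replicate 6 the number that rose was 8.

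Among 14 genes of alternative activation 3 fell, Mrc1, Pparg (-0.79 ± 0.14) and Vegfa (-1.71 ± 0.53), and 2 rose, Il10 and the interleukin 4 receptor gene Il4ra (0.51 ± 0.15). The call of Il4ra ended without fibril replicates 3 or 5 (adjusted p up to 0.0754). Of 18 complement genes C3ar1, the C3a receptor, rose by 0.38 ± 0.09, and C1qc (-0.41 ± 0.15) and C5ar2 (-1.66 ± 0.39) fell, the call of C1qc ending without any 1 of 7 single libraries (adjusted p up to 0.124). Among 24 antigen presentation genes the costimulatory receptor Cd40 (1.89 ± 0.39) and the checkpoint ligand Cd274 (1.23 ± 0.38) rose, and the peptide-loading genes H2-DMa (-1.17 ± 0.29) and H2-DMb1 (-0.48 ± 0.14) fell. In the complement list and in the antigen presentation list 16.7% of genes were called, below the 23.7% over all genes. Cd274 held 234 CPM in fibril replicate 5 and 65.3 to 79.5 CPM in the other fibril libraries, and without replicate 5 it was not called (adjusted p = 0.151). The call of H2-DMb1 also ended without replicate 5 (adjusted p = 0.0523).

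Interferon response genes did not separate the treatments. Their median was 0.58 and all 37 estimates were above 0, but only the guanylate-binding protein gene Gbp2 rose (1.53 ± 0.53). Leaving out any 1 of 6 libraries ended that call (adjusted p up to 0.258, without fibril replicate 5). Their mean level was 4.23, 3.74, 5.60, 6.46 and 7.79 log2 CPM in fibril replicates 1 to 5 and 4.72, 3.72, 4.81, 3.13, 5.82 and 7.35 in control replicates 1 to 6. The range within each group was larger than the difference between groups.

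Of 48 cell cycle and DNA replication genes 25 fell, 0 rose and 23 were not called, with a median of -0.81 and estimates from -1.45 to 0.61. Of 29 replication-dependent histone genes 9 fell, 0 rose and 20 were not called, with a median of -0.89. Mean levels of the cell cycle list were 4.25, 3.74, 4.22, 4.49 and 2.79 log2 CPM with fibrils and 5.28, 5.01, 4.78, 4.70, 4.95 and 3.64 in control replicates 1 to 6. Control replicate 6 was the one control that fell within the fibril range, and fibril replicate 5 was the lowest library. Without control replicate 6, 43 cell cycle genes and 23 histone genes fell, and without the 4 libraries that stand apart 41 cell cycle genes fell. Without fibril replicate 4, 38 cell cycle genes fell. The histone count was 2 without control replicate 1, which holds the highest histone level (6.03 log2 CPM against 3.57 to 5.19 in other controls), 4 without fibril replicate 5 and 14 without fibril replicate 3. With only the compared libraries in the fit, 3 cell cycle and 2 histone genes fell.

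The members with the smallest p include both activators and inhibitors of division. Cdkn1b, the cyclin-dependent kinase inhibitor p27, held 28.6, 27.9, 24.9, 35.5 and 30.9 CPM against 37.8 to 47.7 CPM (median 44.5; -0.56 ± 0.10, adjusted p = 2.38e-04). E2f1, a transcription factor gene for entry into S phase, fell by 0.44 ± 0.10 without overlap. E2f2 (-1.45 ± 0.33) and the inhibitor gene Cdkn2c (-1.01 ± 0.22) fell with overlapping groups, fibril replicate 5 being lowest in both, at 0.385 and 4.38 CPM. Among histones Hist1h2bc held 52.7, 64.6, 57.9, 67 and 61 CPM against 71.6 to 118 CPM (median 77.9; -0.53 ± 0.12), and Hist1h1c fell by 1.30 ± 0.22. The falls of Hist1h2ac (-1.0 ± 0.29) and Hist1h2ag (-1.55 ± 0.47) ended without control replicate 1 (adjusted p = 0.0713 and 0.0955). Histone genes are near-identical copies whose counts are uncertain.

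Genes of cell death were split. Of 23 Bcl2 family and apoptosis genes 5 rose, among them the prosurvival genes Bcl2a1b (1.54 ± 0.21), Bcl2a1d (1.96 ± 0.31) and Bcl2a1a (2.33 ± 0.40), which are near-identical copies that may share reads. The death receptor gene Fas held 20.3, 13.4, 28, 20.1 and 25.6 CPM against 5.34 to 11.6 CPM (median 6.89; 1.52 ± 0.17, adjusted p = 4.72e-07), and Bax rose by 0.35 ± 0.11. Among the 4 that fell were the proapoptotic genes Bmf (-1.86 ± 0.33) and Bcl2l11 (-0.91 ± 0.15), both separate between groups. The call of Bax ended without control replicates 2, 3 or 4 or fibril replicates 4 or 5 (adjusted p up to 0.0823).

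Lysosomes and autophagy clear internalised protein, and LRRK2 acts there through Rab GTPases. Of 53 lysosomal genes 3 rose and 6 fell (median -0.12), so 17% were called, below the 23.7% over all genes. Among those that rose were the proton pump genes Atp6v1h (0.34 ± 0.12) and Atp6v0b (0.25 ± 0.09), with calls that ended without any 1 of 9 and 7 single libraries (adjusted p up to 0.122 and 0.143). Scarb2, the membrane protein that carries glucocerebrosidase to lysosomes, held 95.3, 104, 84.4, 110 and 74.1 CPM against 130 to 170 CPM (median 144; -0.63 ± 0.10). Galc (-0.68 ± 0.16), another glycolipid hydrolase gene, fell without overlap and Asah1, acid ceramidase, fell by 0.25 ± 0.07. The number of lysosomal genes that fell was 3 without fibril replicate 3, 11 without fibril replicate 2 and 12 with scaling by library size alone.

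Of 34 autophagy genes 9 fell, above the 11.5% over all genes, and 4 rose, near the 12.2%, with a median of -0.14. The kinase genes that start autophagy fell, Ulk2 at 75.2, 83.1, 66.2, 83.2 and 79.5 CPM against 95.5 to 129 CPM (median 108; -0.51 ± 0.10) and Ulk1 by 1.01 ± 0.21. Calcoco1 (-0.80 ± 0.14), an autophagy receptor gene, and Rubcn (-0.45 ± 0.08), a negative regulator, fell without overlap. Those that rose were the receptor genes Optn (0.69 ± 0.17) and Sqstm1 (0.54 ± 0.16), Atg3 (0.28 ± 0.07) and Becn1 (0.26 ± 0.05). Atg3 and Becn1 were no longer called when only library size was used for scaling (adjusted p = 0.0617 and 0.0688). Without the 4 libraries that stand apart 5 genes of the list fell and 7 rose, and without control replicate 6 the number that rose was 7.

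Of 29 Rab GTPases and Lrrk2 partners 6 rose, above the 12.2% over all genes, and 3 fell, below the 11.5%. Rab10, a substrate of LRRK2 kinase, held 387, 391, 397, 428 and 522 CPM against 229 to 310 CPM (median 273; 0.66 ± 0.07, adjusted p = 3.42e-07). Rab8a, another substrate, held 102, 106, 101, 113 and 120 CPM against 77.8 to 98.6 CPM (median 83.6; 0.32 ± 0.07). Both were separate between groups. Rab12, a substrate too, rose by 0.20 ± 0.07, a call lost without any 1 of 7 libraries (adjusted p up to 0.112). The paralog gene Lrrk1 (-0.63 ± 0.14), Rab27a (-1.32 ± 0.31) and the residual Lrrk2 signal were the 3 that fell. With only the compared libraries in the fit Rab10 and Rab8a rose (2 genes) and 1 gene fell, Lrrk2.

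Of 28 Parkinson's disease genes 8 fell, above the 11.5% over all genes, and 2 rose, below the 12.2%. Atp13a2, a lysosomal polyamine transporter gene, held 153, 195, 126, 169 and 163 CPM against 215 to 346 CPM (median 255; -0.74 ± 0.13, adjusted p = 1.38e-04), and Scarb2, Galc, Tlr9 and Lrrk2, given above, belong to this list too. Gch1, the first enzyme gene of tetrahydrobiopterin synthesis, held 42.6, 40.9, 77.6, 53.7 and 82.6 CPM against 16.5 to 30.4 CPM (median 20.7; 1.47 ± 0.18, adjusted p = 1.43e-06). The receptor gene Nod2, which senses bacterial cell walls, also rose (1.00 ± 0.33), a call lost without any 1 of 6 libraries (adjusted p up to 0.223). Without fibril replicates 1 or 3 the number of Parkinson's disease genes that fell was 5.

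In lipid metabolism, 3 of 32 fatty acid and lipid droplet genes rose, below the 12.2% over all genes. All of them were acyl-CoA synthetases. Acsl5 held 299, 275, 402, 341 and 278 CPM against 135 to 183 CPM (median 158; 1.03 ± 0.09, adjusted p = 1.56e-08), Acsl1 rose by 1.14 ± 0.12 and Acsl4 by 0.66 ± 0.10, each without overlap. Angptl4, a lipase inhibitor gene, was the strongest of the 6 that fell, at 1.78, 1.38, 1.00, 1.78 and 0.674 CPM against 5.67 to 14.1 CPM (median 6.36; -2.52 ± 0.40). With only the compared libraries in the fit 3 genes of this list fell. Of 20 LXR targets and cholesterol efflux genes 20% were called, below the 23.7% over all genes. The receptor gene Nr1h3 (1.41 ± 0.18) and Ch25h rose without overlap. Cyp27a1, which makes 27-hydroxycholesterol, fell from 11.6 to 31.7 CPM in controls to 3.85 to 7.99 CPM with fibrils (-1.96 ± 0.24). The cholesteryl ester hydrolase gene Nceh1 fell by 0.60 ± 0.20, a call that ended without control replicate 4 or fibril replicates 3 or 5 (adjusted p up to 0.108).

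Cholesterol biosynthesis genes had a median of 0.89 over 23 members, of which 3 rose (13%, near the 12.2% over all genes) and 0 fell. Among them Mvd, an enzyme gene of the mevalonate pathway, rose by 1.15 ± 0.37. The list's mean was 6.03, 5.96, 5.39, 3.91 and 4.72 log2 CPM with fibrils and 4.94, 4.84, 4.94, 5.13, 3.63 and 3.86 in control replicates 1 to 6, so the libraries that stand apart were low in both groups. The count rested on single libraries, at 13 without fibril replicate 4, 8 without fibril replicate 5 or control replicate 4, and 1 without fibril replicates 1 or 2 or control replicate 5. The call of Mvd ended without any 1 of 3 single libraries (adjusted p up to 0.0987).

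Of 39 glycolysis and hypoxia target genes 9 rose, above the 12.2% over all genes, and 4 fell, below the 11.5% (median 0.20). Ndrg1, a hypoxia-induced gene, held 56.9, 41.8, 179, 109 and 205 CPM against 16.1 to 23.1 CPM (median 18.9; 2.62 ± 0.37, adjusted p = 7.63e-06). Hk2, the inducible hexokinase gene, rose by 1.00 ± 0.16 and Hif1a by 0.41 ± 0.08, both without overlap. Vegfa, a hypoxia target as well, was among those that fell (-1.71 ± 0.53), with Mxi1 (-1.64 ± 0.43), Pfkm (-0.57 ± 0.16) and Slc2a3 (-0.84 ± 0.30). The call of Slc2a3 ended without any 1 of 6 single libraries (adjusted p up to 0.168). Of 51 nuclear oxidative phosphorylation genes 1 rose, cytochrome c (Cycs, 0.56 ± 0.12), which has processed pseudogenes, and 1 fell, Sdhd (-0.35 ± 0.09). None of the 13 mitochondrially encoded genes passed (median -0.22, from -0.48 for mt-Nd6 to -0.01), and neither did any of 51 cytosolic ribosomal protein genes (median -0.03).

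Iron handling genes had 5 of 17 members that rose, above the 12.2% over all genes, and 2 that fell, near the 11.5%. Slc11a2, the divalent metal transporter gene, held 321, 367, 282, 332 and 331 CPM against 170 to 250 CPM (median 209; 0.64 ± 0.11, adjusted p = 6.36e-05). Slc39a14 (0.91 ± 0.19), another metal importer gene, Slc11a1 (0.44 ± 0.13), ceruloplasmin (Cp, 1.23 ± 0.39) and the ferritin heavy chain gene Fth1 (0.58 ± 0.20) rose with overlapping groups, and Ncoa4 (-0.50 ± 0.17), the receptor for ferritin breakdown, and Steap3 (-0.61 ± 0.22) fell. The calls of Cp and Slc11a1 ended without fibril replicates 3 or 5 and fibril replicate 2 (adjusted p up to 0.129 and 0.0717), those of Ncoa4 and Steap3 without any 1 of 5 libraries each (0.109 and 0.140), and that of Fth1, a gene with many processed pseudogenes, without any 1 of 7 (0.0919). Of 19 matrix metalloproteinase genes and their partners 6 rose. Mmp9 held 343, 201, 695, 163 and 193 CPM against 52.7 to 144 CPM (median 82.5; 1.85 ± 0.30), Mmp14, which sits in the plasma membrane, rose by 1.98 ± 0.27, and Plaur, the urokinase receptor gene, by 1.18 ± 0.26. The sheddase gene Adam17, whose product releases TNF from the membrane, held 791, 787, 735, 745 and 483 CPM against 358 to 601 CPM (median 461; 0.57 ± 0.12). Fibril replicate 5 was the only fibril library within the control range. The urokinase gene Plau (-0.91 ± 0.32) and Timp2 fell, and the call of Plau ended without any 1 of 6 single libraries (adjusted p up to 0.112).

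The labelled cell type was checked against its markers. Mean levels of 15 microglia and macrophage markers were 7.93 to 8.49 log2 CPM with fibrils and 8.15 to 8.71 in controls, with 2 that rose, the transcription factor Spi1 (0.72 ± 0.08) and Ptprc (0.31 ± 0.10), and 3 that fell, P2ry12, Cx3cr1 and C1qc. The calls of Ptprc and C1qc ended without any 1 of 4 and 7 libraries (adjusted p up to 0.0896 and 0.124). Siglech, a marker of resting microglia, had a total of 1 count over the 11 libraries. Markers of other cells were present at uneven levels, with list means below those of the microglia markers. Astrocyte markers averaged 0.59 to 3.50 log2 CPM with fibrils and 0.66 to 3.21 in controls, and none of 13 was called (median -0.02). Oligodendrocyte lineage markers averaged 0.12 to 2.98 with fibrils and 0.23 to 4.52 in controls, and 1 of 12 fell, Cspg4 (-1.20 ± 0.39), a call that ended without control replicate 5 or fibril replicates 3 or 5 (adjusted p up to 0.155). None of 12 fibroblast markers, 5 neuron markers, 3 neutrophil markers or 1 lymphocyte marker that could be tested was called, and 1 of 5 endothelial markers fell, Pecam1 (-2.06 ± 0.48). Among 8 border macrophage markers Cd38 rose (1.96 ± 0.49), and Mrc1 and Clec10a (-3.01 ± 0.64) fell. Cldn5, Tek, Cd3e and Ly6g held 0 counts in all 11 libraries. The part of other cells in the results above was not tested. With a score of astrocyte, oligodendrocyte and fibroblast markers as a covariate 3758 genes were called. The medians of the NF-kB, proteasome and homeostatic lists were then 1.06, 0.33 and -0.45. Other lists moved under this covariate, with 16 cholesterol biosynthesis genes that rose (3 as reported) and 10 lysosomal genes that fell (6 as reported).

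The same treatment in WT cells gave 4216 called genes (29.4%), in libraries that share no sample with the KO comparison. In both genotypes 2137 genes were called, 62.8% of the KO calls and 50.7% of the WT calls, and all 2137 had the same sign. Of the 3402 genes called in KO, 3289 had the same sign in WT. Sod2 rose by 2.47 ± 0.13 in KO and 2.55 ± 0.15 in WT, and Tnf by 2.44 ± 0.20 and 2.28 ± 0.22. Ptges rose by 3.83 ± 0.35 and 3.91 ± 0.39, and Slco2b1 fell by 4.46 ± 0.46 and 3.74 ± 0.49. For these 4 genes the difference between genotypes was smaller than 2 of its standard errors, from -0.72 ± 0.62 for Slco2b1 to 0.16 ± 0.29 for Tnf. For Il6 the estimates were 3.13 ± 0.73 in KO and 0.38 ± 0.79 in WT, and for Il1b 2.70 ± 0.53 and 1.11 ± 0.56. Neither difference passed (2.75 ± 1.08, adjusted p = 0.349, and 1.59 ± 0.76, adjusted p = 0.419).

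**Figure D4:**
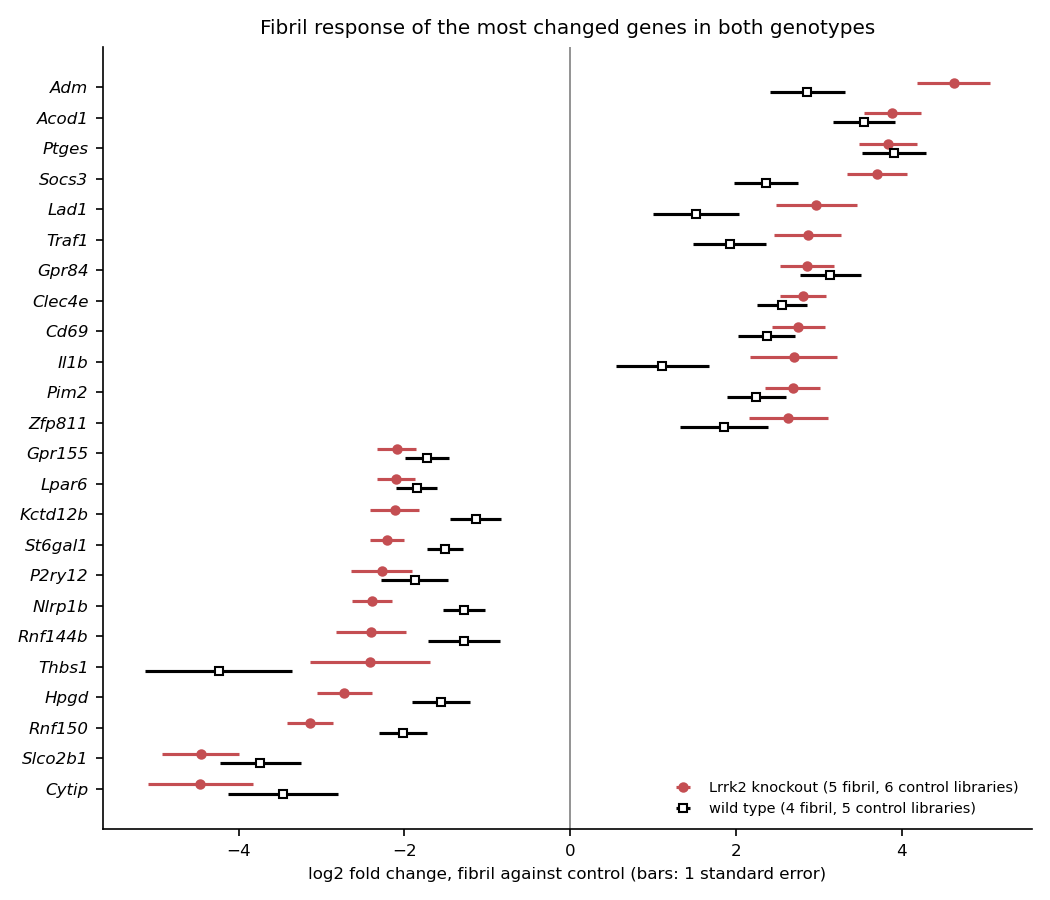
Log2 fold change of fibril against control for the 12 most increased and 12 most decreased genes of the KO comparison, in KO (filled circles) and WT (open squares), with bars of 1 standard error. All 24 genes have the same sign in both genotypes. Since they were chosen by their KO value, a larger size in KO is no finding.

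The difference of the 2 responses (KO minus WT) itself gave 0 called genes in edgeR, beside 1667 genes at an unadjusted p under 0.05 and a smallest adjusted p of 0.2. DESeq2 called 67 genes, 1 surrogate variable gave 4, limma-voom 0, and without WT control replicate 6 edgeR called 12. Genes with the smallest p included Mtm1, a phosphoinositide phosphatase gene, at 0.12 ± 0.09 in KO and 0.76 ± 0.10 in WT (difference -0.63 ± 0.13, adjusted p = 0.2). Rab12, a LRRK2 substrate, was 0.20 ± 0.07 in KO and 0.67 ± 0.07 in WT (difference -0.47 ± 0.10). The mitophagy receptor gene Fundc1 (-0.48 ± 0.08 and 0.06 ± 0.09), the cobalamin transporter gene Abcd4 (-0.71 ± 0.13 and 0.14 ± 0.14) and the sphingomyelinase gene Smpd2 (-1.01 ± 0.13 and -0.20 ± 0.14) fell in KO. Col1a2, a collagen gene of fibroblasts, was -0.03 ± 0.79 in KO and -6.92 ± 1.40 in WT, where its mean went from 17.6 to 0.124 CPM. Other markers of non-microglial cells were also lower with fibrils in WT, with medians of -3.75 for astrocyte, -4.14 for oligodendrocyte and -3.25 for fibroblast lists, against -0.02, -1.08 and -0.23 in KO. Their part in the differences between genotypes was not tested.

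Some lists had higher counts in WT, although only the difference itself, with 0 called genes, compares the genotypes. More genes were called in WT over all genes tested too, 13.8% higher and 15.6% lower against 12.2% and 11.5% in KO. Of the cell cycle genes 40 fell in WT and 25 in KO (medians -1.20 and -0.81), and of the histones 23 and 9. Glycolysis and hypoxia target genes had 24 that rose in WT and 9 in KO (medians 0.68 and 0.20), antioxidant genes 18 and 11 (0.60 and 0.21), and lysosomal genes 14 and 3 (0.17 and -0.12). Cytokines had 12 that rose in WT and 16 in KO (1.11 and 1.74), and NF-kB genes 20 and 23 (1.09 and 1.06).

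Fibrils were also set against LPS within KO cells, which shows how the 2 stimuli differ at doses and times that are not given. Here 3805 genes were called (26.5%), 1976 higher (13.8%) and 1829 lower (12.7%) with fibrils, and 2370 with only these 9 libraries in the fit. All 27 immediate early genes were lower with fibrils (median -1.77). Nr4a1 held 86.7, 98.1, 181 and 167 CPM in LPS replicates 1 to 4, far above the 0.879 to 1.64 CPM of the fibril group (-6.69 ± 0.79, adjusted p = 5.58e-07). Dusp5, a phosphatase gene, held 207, 224, 229 and 234 CPM with LPS and 5.69 to 8.90 CPM with fibrils (-4.97 ± 0.48). Both lay below the controls with fibrils and above them with LPS.

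Of 27 cytokine and chemokine genes 12 were lower with fibrils than with LPS and 0 higher (median -0.90). Il1a, an interleukin gene, held 157, 175, 124 and 107 CPM with LPS and 3.03, 1.80, 11.5, 1.62 and 12 CPM with fibrils (-4.56 ± 0.54, adjusted p = 5.91e-07). The chemokine genes Cxcl1 (-4.39 ± 0.55) and Cxcl2 (-3.0 ± 0.36) behaved alike, and Tnf, at 1780 to 2200 CPM with LPS, was lower by -1.68 ± 0.22 on the log2 scale. Ccl3 was not called, at -0.05 ± 0.34, nor was Csf3 (0.93 ± 0.51). Of the NF-kB list 13 were lower and 4 higher with fibrils. Socs3 (-2.13 ± 0.37) and Nlrp3 (-2.17 ± 0.30) were lower, Acod1 (0.15 ± 0.35) and Icam1 (0.27 ± 0.22) were not called, and Sod2, at 320 to 430 CPM with LPS, was higher with fibrils (1.29 ± 0.15, adjusted p = 3.08e-07).

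For the microglial genes Slco2b1, Cytip, Gpr34 and P2ry12 all LPS libraries lay within the control range. Slco2b1 held 38.4, 40.6, 26.5 and 27.8 CPM with LPS and 0.402 to 3.34 CPM with fibrils (-4.88 ± 0.48, adjusted p = 3.49e-08). Cytip (-4.70 ± 0.66), Gpr34 (-3.90 ± 0.60) and P2ry12 (-2.03 ± 0.39) were lower with fibrils as well, and in the homeostatic list 13 of 26 were lower and 1 higher. Of the cell cycle list 39 of 48 were lower with fibrils (median -1.05). Of 24 antigen presentation genes 8 were lower and 0 higher.

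The genes furthest above LPS were partly those that LPS left low. Pim2 held 4.02, 1.84, 6.27 and 5.02 CPM with LPS and 29.8 to 57.7 CPM with fibrils (3.33 ± 0.40, adjusted p = 6.74e-07), and Gpr18, a lipid receptor gene, held 1.19 to 2.1 CPM with LPS and 7.87 to 25.4 CPM with fibrils (3.36 ± 0.36). Itgal, the integrin αL gene, held 13.1, 15.2, 59.9 and 34 CPM with LPS and 135, 96.7, 298, 393 and 507 CPM with fibrils (3.22 ± 0.57). Adm was higher than with LPS too (2.75 ± 0.46). Of the proteasome list 9 of 33 were higher with fibrils than with LPS and 0 lower. The acute phase genes Saa3 (3.03 ± 1.13) and Lcn2 (2.98 ± 1.07) were called but rested on fibril replicate 5, with 2500 CPM of Saa3 against 107 to 519 in the other fibril libraries, and 129 CPM of Lcn2 against 1.93 to 25.9. Without that library neither was called (adjusted p = 0.286 and 0.343), and each call also ended without any LPS library. Against the controls both were uncalled (0.93 ± 0.91 and 1.32 ± 0.86), and both were called without control replicate 6 (adjusted p = 0.00304 and 0.0465), which holds 1870 CPM of Saa3.

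**Figure D5:**
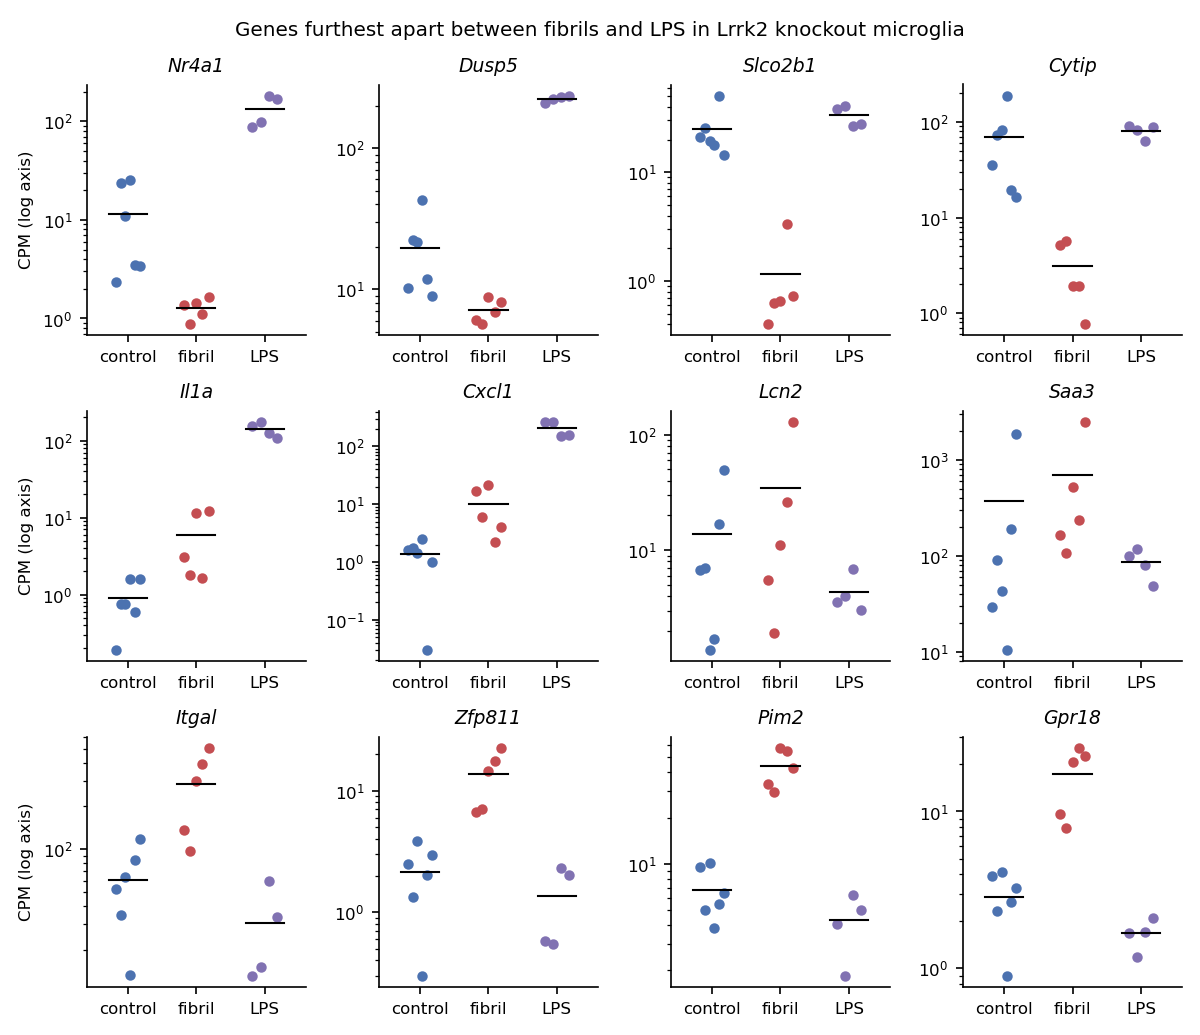
CPM per library (log axis) in KO controls (blue), KO fibril (red) and KO LPS libraries (purple) of the 6 genes furthest below and the 6 furthest above LPS with fibrils, with the group mean as a line. The 1 library without a count, a control for Cxcl1, is drawn at the bottom of the axis. Slco2b1 and Cytip are low with fibrils alone, Nr4a1 and Dusp5 are high with LPS, and Pim2 and Gpr18 are high with fibrils.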

How the data were processed

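The authors deposited unnormalized whole-number counts for each Ensembl transcript. Ribosomal RNA was removed before stranded total RNA libraries were made, per the labels' protocols. Per the submitters' processing notes, CASAVA 1.7.1 and STAR 2.4.2a and the build mm10 were used, with the counting program not given in the sources used here. Of 94647 transcripts, 91320 were matched to genes of GENCODE M21 and summed; the other 3327 (0.779% to 0.891% of a library's counts) were left out. Genes with low counts were removed (edgeR filter), leaving 14346. A quasi-likelihood model with a mean per group over all 30 libraries and TMM scaling was fitted (R 4.3.3, edgeR 4.0.16), with Benjamini-Hochberg adjustment, and tested on simulated data. Changes are log2 fold changes ± SE, where SE is the size of the change divided by the square root of the test's F statistic. Lists are described by counts and medians. Genes of near-identical copies are uncertain.

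Named genes are of several kinds. The 12 strongest rises and the 12 strongest falls were taken at an average log2 CPM of 2 or more, without genes that carry a number for a name. Each list gave its 4 called genes of smallest p, or 2 genes if it had none. Added were Nos2, Nqo1, Hmox1, Il6, Il1b, Tnf, Sod2 and Lrrk2, the genes that make up any count of at most 5, the 6 genes with the smallest p for KO minus WT, and 6 at each end of fibrils against LPS. Nos2 was too low to be tested. Some genes the rule takes are not reported here. The members and the 43 lists were chosen with earlier results of these data known. Alternatives were RLE or no scaling factors, other filters, limma-voom (limma 3.58.1), DESeq2 1.42.0, only the compared groups, a replicate block, sva 3.50.0 and each library left out. Chosen after seeing the data were a marker score covariate and leaving out 4 libraries.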

Additional observations from a re-analysis of the deposited data

Results flagged for a closer look

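Within the 2 groups compared, 27 of 406 gene and group pairs examined (6.65%) had 1 library far from the rest, judged by the gap to the nearest other library as a share of the group's whole range. Chance gives about 1 in 20 such pairs. Values below are that gap share, then the CPM of the library and the range of the others in its group. The causes were not tested.

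The library KO control replicate 1 was the lowest for Klf6 (0.79, 342 against 446 to 479 CPM). The library KO control replicate 2 was the lowest for Psmc2 (0.803, 75.2 against 85.6 to 88.4 CPM). The library KO control replicate 4 was the highest library for Atp6v1h (0.657, 210 against 133 to 156 CPM) and was the lowest for Adm (0.679, 1.09 against 1.67 to 2.02 CPM). The library KO control replicate 5 was the highest library for Angptl4 (0.772, 14.1 against 5.67 to 6.98 CPM) and Ncoa4 (0.628, 423 against 298 to 339 CPM) and was the lowest for Col1a2 (0.679, 2.6 against 12.8 to 27 CPM), Cxcl1 (0.736, 0 against 0.982 to 2.49 CPM) and Socs3 (0.692, 3.84 against 8.05 to 11.2 CPM). The library KO control replicate 6 was the highest library for Clec4e (0.681, 99.9 against 36 to 49.9 CPM) and was the lowest for Ank (0.632, 28.1 against 48 to 65.5 CPM) and Hpgd (0.629, 68.7 against 131 to 192 CPM). The library KO fibril replicate 3 was the highest library for Hist1h2ac (0.726, 5.85 against 2.94 to 3.55 CPM) and was the lowest for Hmox1 (0.788, 455 against 1120 to 1430 CPM), Mtm1 (0.732, 34.4 against 42.7 to 46.1 CPM), Nlrp1b (0.779, 0.9 against 3.42 to 4.94 CPM) and Rnf144b (0.764, 0.95 against 3.21 to 4.62 CPM). The library KO fibril replicate 4 was the highest library for Slco2b1 (0.742, 3.34 against 0.402 to 0.723 CPM) and was the lowest for Mmp14 (0.755, 77.4 against 224 to 315 CPM). The library KO fibril replicate 5 was the highest library for Acsl4 (0.773, 383 against 263 to 286 CPM), Cd274 (0.846, 234 against 65.3 to 79.5 CPM) and Tlr8 (0.754, 112 against 43.2 to 54.7 CPM) and was the lowest for Adam17 (0.85, 483 against 735 to 791 CPM), Cdkn2c (0.721, 4.38 against 9.25 to 12.3 CPM), E2f2 (0.831, 0.385 against 1.8 to 2.41 CPM) and Gpx1 (0.727, 78.1 against 142 to 179 CPM).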

How the results depend on the processing

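No named gene reversed its sign with a call, and 119 of the 184 named genes called with fibrils kept the call under every alternative run. Another 38 lost it without at least 1 single library. Only the compared groups in the fit ended 56 of the 184 calls, the largest loss. Among these were Pfkm (adjusted p = 0.137), Sqstm1 (0.122), Rac2 (0.0805), Asah1 (0.0802), Hspa8 (0.0563) and E2f1 (0.0522). With limma-voom 12 calls ended, among them Vegfa (adjusted p = 0.167), Olr1 (0.104) and Dusp5 (0.0781). The count of genes called (3402) was 3428 with RLE scaling, 3870 with DESeq2, 3514 with limma-voom and 2741 without a filter on low counts. Only the compared groups in the fit gave 1541 genes, 836 higher and 705 lower, and 2370 against LPS. Both the libraries that set the spread and the genes kept by the filter then differ (13230 tested against control, 14346 as reported). Scaling by library size alone put the median over all genes at -0.13 (-0.04 as reported), and of 3234 calls 1002 (31%) were higher, against 51.3%; against LPS 62.8% were higher, against 51.9%. Leaving out 1 library gave 2665 to 3811 genes, 1400 to 2007 higher and 1265 to 1804 lower, and 2990 to 3795 against LPS. The difference KO minus WT, with 0 genes, gave 67 with DESeq2 and 4 with 1 surrogate variable, and 0 to 12 without 1 library, the 12 without WT control replicate 6. The cause of these shifts was not tested.

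The main test assumed no pairing of samples. Same-numbered fibril and control libraries had correlations of deviations from -0.12 to 0.25, 4 of 5 over 0.1, and 0 of 5 fibril libraries correlated best with its own number. Fibril replicates 1, 2 and 3 matched control replicates 2 (0.41), 4 (0.29) and 1 (0.32) best in both directions. The best matches, in both directions, of fibril replicates 4 and 5 were control replicates 5 (0.64) and 6 (0.73), the 4 libraries that stand apart, and whether these share a preparation was not tested. With the replicate block 3672 genes were called. Under it 44 cell cycle genes and 18 histone genes fell (25 and 9 as reported), and 5 cholesterol biosynthesis and 5 lysosomal genes rose (3 each as reported). The calls of Il18 (adjusted p = 0.11), Hspa5 (0.0552), Thbs1 (0.0516) and Cp (0.0506) against control, and of Lcn2 (0.21) and Saa3 (0.156) against LPS, were lost under the block. The total count of control replicate 4, 8936310, limits low genes most.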
